A study of Mus musculus with 6 samples.

Results

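The 9 genes described here encode very long proteins and scaffolds of the sarcomere, the contractile unit of striated muscle. They were chosen by symbol from the deposited count tables and are Ttn, Neb, Mybpc1, Mybpc2, Myom1, Myom2, Xirp1, Xirp2 and Actn3. All 9 were found once each among the 23282 rows, and all 9 were among the 11700 genes that passed the filter on low counts. RNA was sequenced from gastrocnemius, a calf muscle of mostly fast fibres, of 6 wild-type male C57/BL6J mice aged 20 months. In the inotodiol group 3 mice were given inotodiol, a triterpenoid made by the chaga mushroom, at 0.35 mg/kg by mouth every day over 10 weeks. The 3 control mice received vehicle, made of 40% polyethylene glycol, 5% Tween 80 and 0.9% saline. The comparison asks which transcripts of aged muscle differ with treatment. A whole muscle holds many cell types, so fewer cells of a type and less RNA per cell cannot be told apart.

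Titin, the product of Ttn, spans from the Z-disc to the M-band and acts as a molecular spring and a blueprint of the thick filament, and nebulin, the product of Neb, runs along the thin filament and sets its length. Myosin-binding protein C, encoded by Mybpc1 in its slow and Mybpc2 in its fast skeletal form, binds the thick filament and tunes the cycling of myosin heads. Myomesin 1 and 2, from Myom1 and Myom2, cross-link thick filaments at the M-band. Xirp1 and Xirp2 encode Xin and its larger relative, actin-binding repeat proteins that gather at attachment sites and at damaged myofibrils, and Actn3 encodes the alpha-actinin of fast fibres, which cross-links actin at the Z-disc.

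The members span a wide range of sizes on the GRCm38 assembly. Ttn lies on the minus strand of chromosome 2 from 76703980 to 76982547, and its longest coding transcript in GENCODE M21 has 347 exons and 106.824 kb. Neb (chromosome 2, 52136647 to 52378474) has a longest coding transcript of 22.489 kb and Xirp2 (chromosome 2, 67446002 to 67526614) one of 11.979 kb. The longest coding transcripts of the other 6 run from 2.887 kb for Actn3 (chromosome 19, 4861216 to 4877909) to 5.839 kb for Xirp1 (chromosome 9, 120013755 to 120023598). Mybpc1 lies on chromosome 10 (88518279 to 88605152), Mybpc2 on chromosome 7 (44501699 to 44524656), Myom1 on chromosome 17 (71002633 to 71126856) and Myom2 on chromosome 8 (15057653 to 15133541). The Myom1 span overlaps the start of Myl12a on the other strand, and the Xirp1 span lies inside that of Cx3cr1 on the same strand. Cx3cr1 had at most 33 counts in inotodiol and 87 in vehicle libraries, against at least 1247 and 1181 for Xirp1, whereas Myl12a had 3349 to 5150 and 3941 to 4247 counts. Neither the strand setting nor the annotation of the counting is given in the sources used here. With the GENCODE span the Myom1 counts could share reads with Myl12a, which ends at 71002878. The RefSeq promoter window of Myom1 begins at 71019307, beyond that end, so a count by the RefSeq start would not meet Myl12a.

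Of the 9 genes, 5 had a promoter window in the RefSeq table (GRCm38.p6), from 250 bases before to 50 after the annotated start. Shown first are Ttn (chr2:76982498-76982797, minus strand), which took the most counts, and Xirp2 (chr2:67445752-67446051, plus strand), whose counts were highest in the same pair of inotodiol libraries. The slow and fast paralogs Mybpc1 (chr10:88605103-88605402, minus strand) and Mybpc2 (chr7:44524620-44524919, minus strand) follow. Capitals mark matches on either strand to the E-box CANNTG bound by myogenic factors, the MCAT motif CATTCC, the TATA motif TATAAA and the MEF2 and CArG consensus motifs.
Ttn: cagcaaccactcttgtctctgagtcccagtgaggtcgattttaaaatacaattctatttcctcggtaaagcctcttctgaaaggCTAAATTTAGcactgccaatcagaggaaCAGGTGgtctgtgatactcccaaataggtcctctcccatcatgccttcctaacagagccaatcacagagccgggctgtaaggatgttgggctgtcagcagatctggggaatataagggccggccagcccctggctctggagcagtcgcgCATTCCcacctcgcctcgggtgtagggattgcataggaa
Xirp2: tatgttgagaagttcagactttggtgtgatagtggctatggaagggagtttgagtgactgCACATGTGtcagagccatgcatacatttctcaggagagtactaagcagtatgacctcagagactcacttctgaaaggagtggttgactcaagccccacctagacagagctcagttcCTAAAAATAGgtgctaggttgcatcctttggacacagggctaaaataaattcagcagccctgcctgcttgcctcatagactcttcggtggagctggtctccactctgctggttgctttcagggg
Mybpc1: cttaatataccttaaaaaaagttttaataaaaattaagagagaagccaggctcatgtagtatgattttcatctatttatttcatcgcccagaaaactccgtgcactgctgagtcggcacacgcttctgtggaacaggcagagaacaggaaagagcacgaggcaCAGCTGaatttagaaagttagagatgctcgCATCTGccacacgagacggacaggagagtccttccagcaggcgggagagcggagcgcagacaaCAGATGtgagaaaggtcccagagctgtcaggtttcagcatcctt
Mybpc2: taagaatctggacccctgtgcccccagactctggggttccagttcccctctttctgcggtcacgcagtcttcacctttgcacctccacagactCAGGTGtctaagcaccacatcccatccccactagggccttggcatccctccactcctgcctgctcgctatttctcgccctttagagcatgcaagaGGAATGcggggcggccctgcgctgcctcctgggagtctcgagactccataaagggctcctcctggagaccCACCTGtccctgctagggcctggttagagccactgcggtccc
A MEF2 match stood at -166 from the start in Ttn and at -74 in Xirp2, and 3.19% of 32851 promoter windows of the same length held one. Neither Mybpc1 nor Mybpc2 had a MEF2 match in this window. An E-box match was present in all 4 windows and in 72.3% of all windows. In Xirp2 its E-box matches at -190 and -188 overlapped each other. The MCAT motif matched at 12 in Ttn and at -62 in Mybpc2, against 14.7% of all windows. None of the 4 held a TATA match (13.6% of all windows) or a CArG match (1.63%), and no other pair of matches overlapped. The Myom1 window (chr17:71019307-71019606, plus strand), not shown, did hold a CArG match, at -99. It also held E-box matches at -231, -130 and -55, and no MEF2, MCAT or TATA match. These matches describe letters in a window and show no binding.

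The 6 libraries held 8961893 to 9953764 counts. Inotodiol library 3 had a chi-square per gene of 47.6 and 51.4 against the other inotodiol libraries. It was 15.04 between those and 15.9 to 24.2 between vehicle libraries. This value is summed over raw counts, so genes with many counts weigh most in it. The ribosomal RNA precursor Rn45s, given below, was kept in, and its part in the value was not tested. The 6 skeletal fibre markers Acta1, Ckm, Tnnt3, Mylpf, Myh4 and Myh1 were all detected and together took 121100 to 124200 CPM (counts scaled to a fixed library total, here without TMM) in inotodiol and 123000 to 132000 in vehicle libraries. Of the 5 cardiac markers, the atrial light chain gene Myl7 was at 0 in all libraries, and 3 others passed the filter on low counts. Summed, the cardiac markers Myh6, Myl7, Nppa, Myl4 and Sln took 71.52 to 90.12 unscaled CPM in inotodiol and 73.45 to 124.5 in vehicle libraries. Whether these counts come from cardiac muscle was not tested. All 5 hepatocyte markers were detected, at 62.9 to 384 unscaled CPM summed in inotodiol and 10.6 to 50.9 in vehicle libraries, and their part in the results below was not tested. Rn45s, the precursor of ribosomal RNA, took 10.2%, 9.56% and 4.33% of counts in inotodiol libraries 1 to 3 and 3.97%, 6.82% and 4.38% in vehicle libraries 1 to 3. In edgeR's quasi-likelihood test 0 genes had an adjusted p under 0.05 and 570 an unadjusted p under 0.05, while DESeq2 called 1 gene, which is no member, and limma-voom 0.

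Together the 9 genes took 7.76%, 8.39% and 6.26% of all counts in inotodiol libraries 1 to 3, and 6.96%, 8.15% and 6.50% in vehicle libraries 1 to 3. The group means were 7.47% ± 1.09 with inotodiol and 7.20% ± 0.849 with vehicle (SD, n = 3 each). Exact binomial 95% intervals of these shares, which cover counting error only, were narrow, such as 7.74% to 7.78% in inotodiol library 1. Ttn alone made up 62.5%, 63.1% and 55.2% of the members' counts in inotodiol libraries 1 to 3, against 56.6%, 63.8% and 56.0% in vehicle libraries 1 to 3. Without Ttn, the other 8 took 2.94% ± 0.146 with inotodiol and 2.94% ± 0.0801 with vehicle, and stayed between 2.81% and 3.10% in all 6 libraries. With Rn45s out of the totals, the 9 genes took 8.16% ± 1.43 with inotodiol and 7.60% ± 1.02 with vehicle.

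Levels below are CPM scaled by TMM, the trimmed mean of M-values, and so relative to the bulk of genes in each library. Per kb of longest coding transcript, Actn3 had the highest level of the 9, at a mean of 1662 CPM per kb over the 6 libraries. Mybpc2 followed at 1180 CPM per kb, then Neb at 522, Ttn at 416, Xirp2 at 383, Myom1 at 331 and Myom2 at 290. Mybpc1 and Xirp1 stood lowest, at 152 and 28.5 CPM per kb. In every library Actn3 lay above Mybpc2, Mybpc2 above Neb and Neb above Ttn. The ranges over libraries did not overlap for the first 2 of these steps and did for Neb and Ttn, and for Ttn, Xirp2 and Myom1. The libraries were made with a Quant-Seq kit, and whether counts grow with transcript length was not settled. If they come from transcript ends alone, levels between genes would compare by CPM without the division by length, with Ttn first.

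None of the 9 genes passed the test between inotodiol and vehicle muscle. All 9 log2 fold changes were above 0, from 0.018 for Mybpc1 to 0.36 for Xirp1, with a median of 0.12, against a median of -0.00073 over all 11700 genes tested, of which 49.9% were above 0. For the 9, p adjusted over all genes ran from 0.96 to 0.998 in edgeR, where 0% of all genes were called. With no filter on low counts 0.576% of genes were called, none of them among the 9. With all 6 libraries and TMM none of the 9 reached an unadjusted p under 0.05 in edgeR, which 4.87% of all genes did, 2.67% higher and 2.21% lower with inotodiol. Without inotodiol replicate 3, 4 of the 9 did, against 4.90% of all genes: Ttn (unadjusted p 0.010 in edgeR), Neb (0.035), Myom1 (0.0497) and Xirp2 (0.0051). Their adjusted p there was at least 0.56. Without vehicle replicate 2, Ttn and Xirp2 did (0.040 and 0.043, adjusted p 0.97 in edgeR), against 4.83% of all genes. In none were the inotodiol libraries all on one side of the vehicle libraries, as they were in 10.4% of all genes, 5.15% higher and 5.26% lower with inotodiol. The shared sign held with RLE (relative log expression) and upper-quartile factors, where all 9 were above 0, but not with library totals. With library totals in place of TMM the median of all genes moved to -0.12 and 4 of the 9 were above 0. The lowest of the 9 was then Mybpc1 at -0.11, above that median. With the Rn45s level as a term in the TMM-scaled fit 5 of the 9 were above 0. In counts simulated for this comparison over 11393 genes, with changed genes drawn from those at 100 CPM or more, a 1.25-fold change was called in 4% of the genes given it. For a 1.5-fold change the share was 30%, and for a 2-fold and a 4-fold change it was 100%. At each of these folds 50 genes were changed, all in the same simulated counts, and 5 unchanged genes were called. Many strong changes at once make an adjusted p easier to pass, and genes were drawn independently, without a pattern shared within a library. The shares could therefore overstate recovery for the 9 genes.

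**Figure D1:**
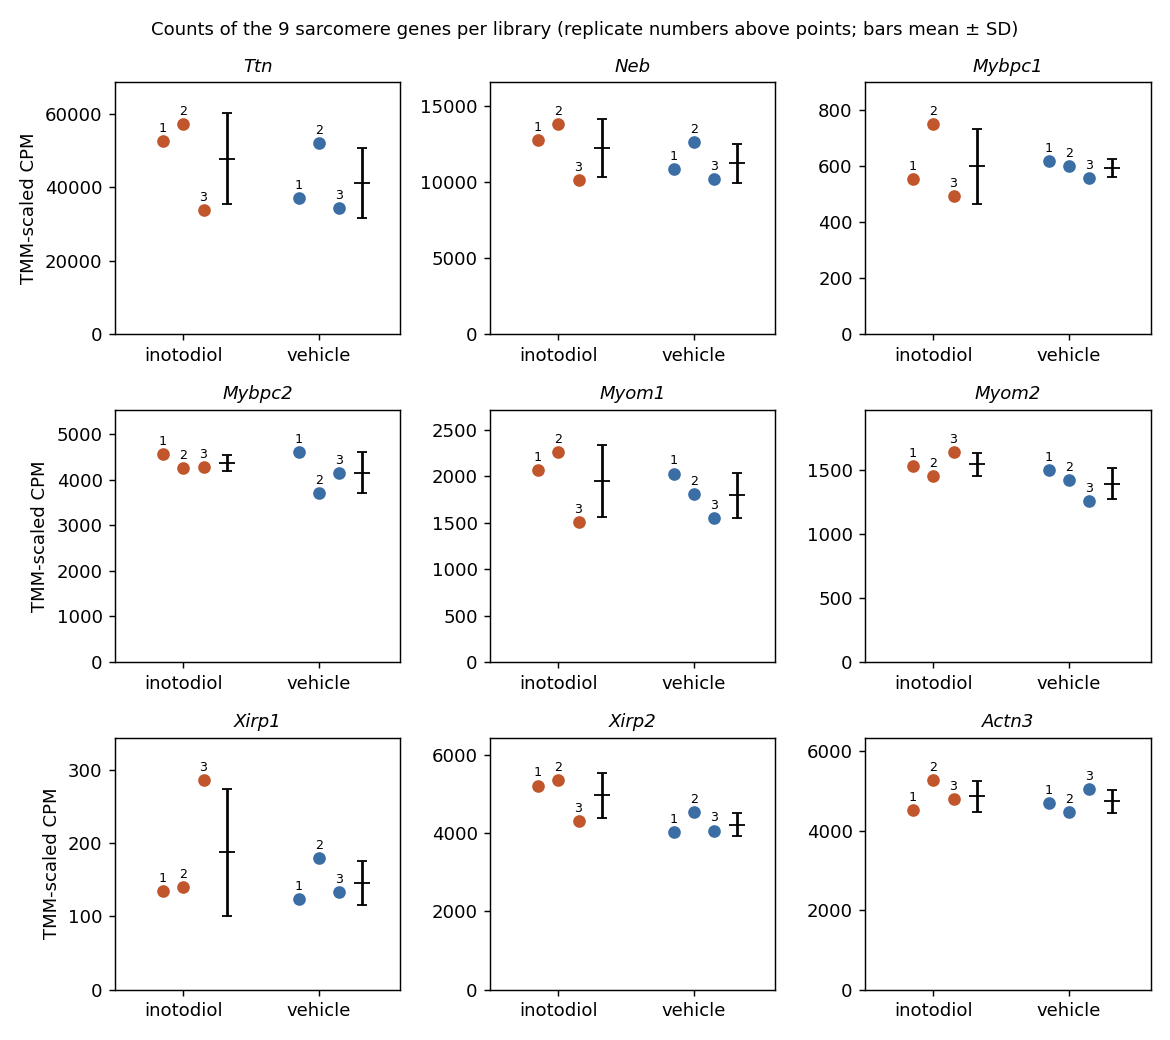
TMM-scaled CPM of each of the 9 genes in each library, inotodiol left and vehicle right, with the replicate number above each point and the mean ± SD (n = 3) as a bar; each y axis starts at 0. In every panel the points of the groups overlap, Ttn and Neb are high in inotodiol 1 and 2 and vehicle 2, and Xirp1 is high in inotodiol 3.

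**Figure D2:**
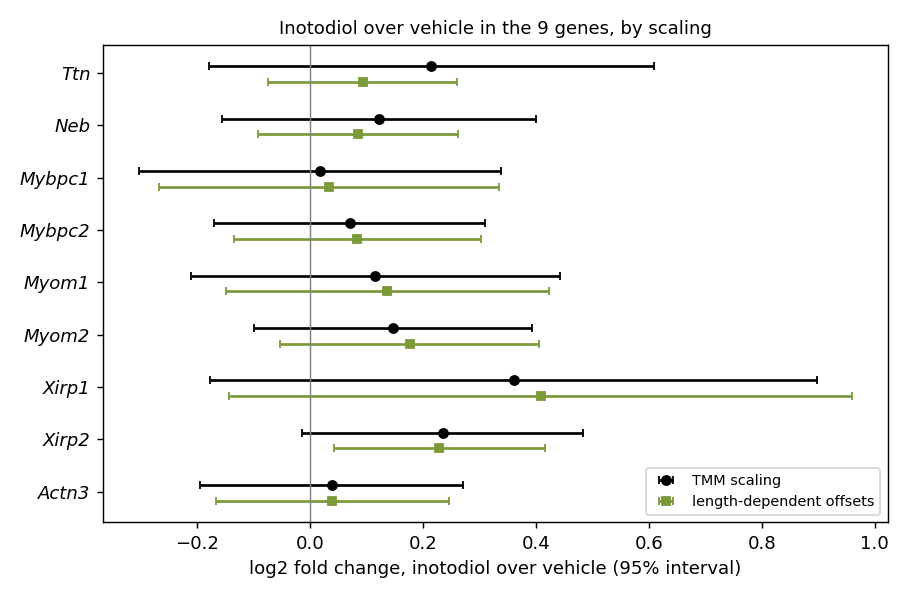
Log2 fold change of each gene, inotodiol over vehicle, with its 95% interval, for TMM scaling (circles) and for offsets that also follow transcript length (squares). All 9 circles lie to the right of 0, every circle's interval includes 0, and the interval of Ttn shrinks from -0.18 to 0.61 under TMM scaling to -0.074 to 0.26 with the length-dependent offsets.

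Titin RNA varied between libraries more than it differed between groups. Ttn had 52427, 57054 and 33797 CPM in inotodiol libraries 1 to 3, against 37183, 51891 and 34352 CPM in vehicle libraries 1 to 3. The groups overlapped, with inotodiol 1 and 2 and vehicle 2 high and the other 3 libraries low. Means were 47760 ± 12311 CPM with inotodiol and 41142 ± 9416 CPM with vehicle (SD, n = 3 each), and the log2 fold change was 0.22 ± 0.18 (SE), with a 95% interval of -0.18 to 0.61 and an adjusted p of 0.96 in edgeR. Its highest library was 1.69 times its lowest, a larger ratio than in 88.7% of the 1230 genes averaging 100 CPM or more. Counting error of 0.174% at its lowest count was far below that. The log2 fold change of Ttn was 0.067 without inotodiol replicate 2, 0.41 without inotodiol replicate 3 and 0.42 without vehicle replicate 2, and -0.17 with the Rn45s level as a term in the fit.

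Nebulin RNA followed the same order of libraries on a smaller scale. Neb had 12805, 13810 and 10129 CPM in inotodiol libraries 1 to 3, against 10896, 12674 and 10187 CPM in vehicle libraries 1 to 3. Both genes ran, high to low, through inotodiol 2, inotodiol 1, vehicle 2, vehicle 1, vehicle 3 and inotodiol 3. The Neb log2 fold change was 0.12 ± 0.13 (95% interval -0.16 to 0.40, adjusted p 0.98 in edgeR), and 0.24 without inotodiol replicate 3, 0.027 without inotodiol replicate 2. Within a library the ratio of Ttn to Neb counts was 4.09, 4.13 and 3.34 in inotodiol libraries 1 to 3 and 3.41, 4.09 and 3.37 in vehicle libraries 1 to 3. It differed by 0.087 on the log2 scale between the groups (exact two-sided permutation test, p = 0.8, where 0.1 is the smallest p that 3 against 3 allows), and by 0.19 without inotodiol replicate 3 and 0.033 without inotodiol replicate 2.

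Other long transcripts and RNAs retained in the nucleus varied between libraries in the same direction. Of 6615 other genes averaging 10 CPM or more, 6376 had a transcript length, and these were grouped by length after the data had been seen. For the 83 longer than 12 kb, the median log2 CPM relative to each gene's mean was 0.11, 0.14 and -0.15 in inotodiol libraries 1 to 3 and -0.050, 0.12 and -0.14 in vehicle libraries 1 to 3. For the 1688 under 2 kb it was 0.023, -0.031 and 0.12 in inotodiol libraries and -0.033, -0.063 and 0.0084 in vehicle libraries. Inotodiol 3 thus had low long and high short transcripts, and vehicle 2 and inotodiol 2 the reverse. The nuclear long noncoding RNA Malat1 had 8675, 9273 and 4366 CPM in inotodiol libraries 1 to 3, against 5174, 8684 and 5357 CPM in vehicle libraries 1 to 3. Neat1, the scaffold of nuclear paraspeckles, had 918, 1063 and 677 CPM in inotodiol libraries and 521, 1057 and 518 CPM in vehicle libraries. For Ttn, Neb, Malat1, Neat1 and Rn45s alike, the 3 highest libraries were inotodiol 1, inotodiol 2 and vehicle 2. The labels name no batch or RNA quality value, and the part of either in this pattern was not tested.

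**Figure D3:**
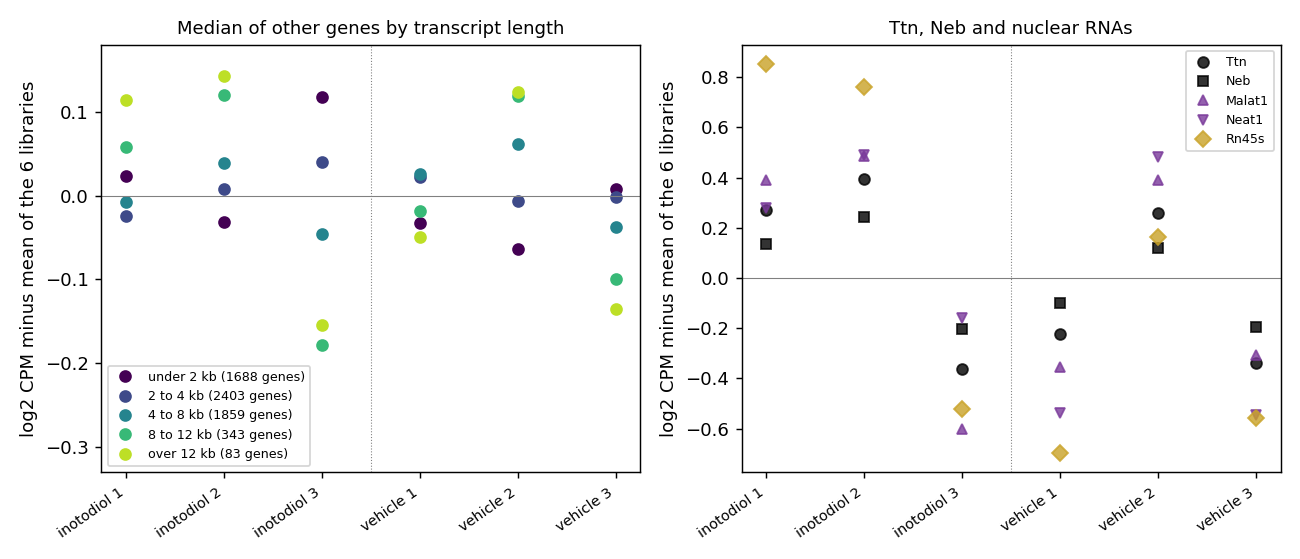
Log2 CPM minus the mean of the 6 libraries, for each library, inotodiol left of vehicle; the left panel gives the median of other genes in classes of transcript length, the right panel Ttn, Neb, Malat1, Neat1 and Rn45s. Genes over 12 kb, Ttn and Neb lie above 0 in inotodiol 1, inotodiol 2 and vehicle 2 and below 0 in the other 3 libraries.

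When each library was given an offset that follows transcript length, fitted on other genes and chosen after the data had been seen, the spread of the longest members narrowed. The standard deviation of Ttn over the 6 libraries was 0.078 on the log2 scale with the offsets and 0.34 without them, and that of Neb 0.061 and 0.19. The Ttn log2 fold change was then 0.094 ± 0.078 and that of Neb 0.085 ± 0.082, with adjusted p of 0.97 for both in edgeR. The offset curve rests on few genes at the length of Ttn, the longest other gene being Kcnq1ot1 at 93.1 kb. For the 6 members under 6 kb the offsets moved no log2 fold change by more than 0.05.

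Neither the slow nor the fast gene of myosin-binding protein C passed the test. Mybpc2, the fast form, had 4564, 4260 and 4272 CPM in inotodiol libraries 1 to 3, against 4608, 3710 and 4151 CPM in vehicle libraries 1 to 3. Its log2 fold change was 0.071 ± 0.11 (95% interval -0.17 to 0.31, adjusted p 0.99 in edgeR). Mybpc1, the slow form, had 556, 749.7 and 494 CPM in inotodiol libraries and 620 CPM, 600.4 CPM and 558 CPM in vehicle libraries. Inotodiol 2 was highest and inotodiol 3 lowest, so that the vehicle libraries lay inside the inotodiol range. The coefficient of variation of Mybpc1 was 22.2% with inotodiol and 5.38% with vehicle, and its log2 fold change of 0.018 ± 0.15 turned to -0.17 without inotodiol replicate 2 and to -0.024 without vehicle replicate 3. Counts of Mybpc2 were 8.21, 5.68 and 8.64 times those of Mybpc1 in inotodiol libraries 1 to 3 and 7.43, 6.18 and 7.44 times in vehicle libraries 1 to 3, a difference of 0.079 on the log2 scale (exact two-sided permutation test, p = 0.6). It was -0.034 without inotodiol replicate 3 and -0.0098 without vehicle replicate 2. Their longest coding transcripts are of like length, 3.611 kb for Mybpc2 and 3.922 kb for Mybpc1.

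At the M-band, the myomesin genes did not follow one another. Myom1, whose product is found in all striated muscle, had 2066, 2262 and 1512 CPM in inotodiol libraries 1 to 3, against 2030, 1810 and 1549 CPM in vehicle libraries 1 to 3. Myom2, typical of fast fibres, had 1534, 1458 and 1643 CPM in inotodiol libraries and 1499, 1426 and 1260 CPM in vehicle libraries. Inotodiol 3 was the lowest library for Myom1 and the highest for Myom2. The ratio of Myom2 to Myom1 counts was 1.09 in that library, and 0.742 and 0.644 in inotodiol libraries 1 and 2, against 0.738, 0.788 and 0.814 in vehicle libraries 1 to 3. Between the groups it differed by 0.045 on the log2 scale (exact two-sided permutation test, p = 0.9), and by -0.17 without inotodiol replicate 3. The log2 fold changes were 0.12 ± 0.15 for Myom1 (95% interval -0.21 to 0.44) and 0.15 ± 0.11 for Myom2 (95% interval -0.098 to 0.39). Without inotodiol replicate 3 that of Myom1 was 0.27, and without inotodiol replicate 2 it was -0.0058.

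The Xin genes had the largest log2 fold changes of the 9, and neither passed the test. Xirp2 had 5221, 5374 and 4307 CPM in inotodiol libraries 1 to 3, against 4036, 4554 and 4071 CPM in vehicle libraries 1 to 3. Inotodiol 1 and 2 lay above every vehicle library, and inotodiol 3 lay below vehicle 2. Means were 4967 ± 577 CPM with inotodiol and 4220 ± 289.6 CPM with vehicle (SD, n = 3 each), a log2 fold change of 0.24 ± 0.12 with a 95% interval of -0.014 to 0.48, an unadjusted p of 0.063 and an adjusted p of 0.96 in edgeR. Without inotodiol replicate 3 it was 0.33, with an unadjusted p of 0.0051 and an adjusted p of 0.56. With the length-dependent offsets the centred log2 levels of Xirp2 were 0.11, 0.12 and 0.12 in inotodiol libraries 1 to 3 and -0.15, -0.14 and -0.053 in vehicle libraries 1 to 3. The groups then no longer overlapped, for Xirp2 and Neb among the 9, as in 10.6% of all genes under the same offsets. For Neb the gap was narrow, with inotodiol 1 at -0.0255 and vehicle 3 at -0.0288 under these offsets. The Xirp2 log2 fold change there was 0.23 ± 0.087, with an unadjusted p of 0.020 and an adjusted p of 0.95 in edgeR. Under these offsets 5.03% of all genes had an unadjusted p under 0.05.

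Xirp1 was high in 1 inotodiol library. It had 135 CPM, 140 CPM and 287 CPM in inotodiol libraries 1 to 3, against 124, 180.1 and 133 CPM in vehicle libraries 1 to 3. The highest library was 2.31 times the lowest, a larger ratio than in 97.0% of genes averaging 100 CPM or more. Its log2 fold change was 0.36 ± 0.25 (95% interval -0.18 to 0.90, adjusted p 0.96 in edgeR), -0.086 without inotodiol replicate 3 and 0.55 without inotodiol replicate 1. The ratio of Xirp1 to Xirp2 counts was 0.0259, 0.0260 and 0.0666 in inotodiol libraries 1 to 3 and 0.0308, 0.0396 and 0.0328 in vehicle libraries 1 to 3. The log2 difference was 0.057 (exact two-sided permutation test, p = 1), -0.40 without inotodiol replicate 3 and -0.018 without vehicle replicate 1. Csrp3 and Ankrd2, mechanosensor genes singled out here after their values were seen, were highest in the same library. Csrp3, which encodes muscle LIM protein, had 84.3, 73.3 and 201 CPM in inotodiol libraries 1 to 3, against 57.6, 79.8 and 60.6 CPM in vehicle libraries 1 to 3. Ankrd2, a titin-binding ankyrin repeat protein induced by stretch, had 435 CPM, 349.6 CPM and 789 CPM in inotodiol libraries and 309, 409 and 295 CPM in vehicle libraries. Other genes named below from the same mechanosensing list differed. Ankrd23 had 1069, 1144 and 820 CPM in inotodiol libraries 1 to 3, against 507, 1018 and 682 CPM in vehicle libraries 1 to 3. Tcap had 2153, 1751 and 2160 CPM in inotodiol libraries, so inotodiol 3 was hardly above inotodiol 1. The slow fibre markers Myh7, Tnnt1, Tnni1, Myl3 and Myl2, summed, were also highest in inotodiol 3, at 2343 unscaled CPM. Their sum was 1907 and 1640 in inotodiol libraries 1 and 2, and 2124, 2276 and 1655 in vehicle libraries 1 to 3. The part of fibre type in these levels was not tested.

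Of the 9 genes Actn3 had the smallest ratio of highest to lowest library. It had 4507, 5282 and 4801 CPM in inotodiol libraries 1 to 3, against 4690 CPM, 4461 CPM and 5049 CPM in vehicle libraries 1 to 3. Its highest library was 1.18 times its lowest, a larger ratio than in 9.67% of genes averaging 100 CPM or more. Within the inotodiol group its coefficient of variation, 8.04%, was above those of Mybpc2 (3.95%) and Myom2 (6.01%), and within vehicle its 6.26% was above that of Mybpc1 (5.38%). The log2 fold change was 0.039 ± 0.11, with a 95% interval of -0.19 to 0.27, and -0.024 without inotodiol replicate 2. Actn2, the alpha-actinin of all fibre types, is no member and had 437, 404 and 741 CPM in inotodiol libraries 1 to 3, against 552, 549 and 464 CPM in vehicle libraries 1 to 3. Counts of Actn3 were therefore 10.3, 13.1 and 6.48 times those of Actn2 in inotodiol libraries and 8.49, 8.12 and 10.9 times in vehicle libraries. The difference was 0.072 on the log2 scale (exact two-sided permutation test, p = 1), 0.35 without inotodiol replicate 3, -0.15 without inotodiol replicate 2 and -0.0085 without vehicle replicate 2. Over the 6 ratios compared, the last being Mybpc2 to Myom2, the p adjusted by Benjamini-Hochberg was 1 for each in the exact permutation tests.

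**Figure D4:**
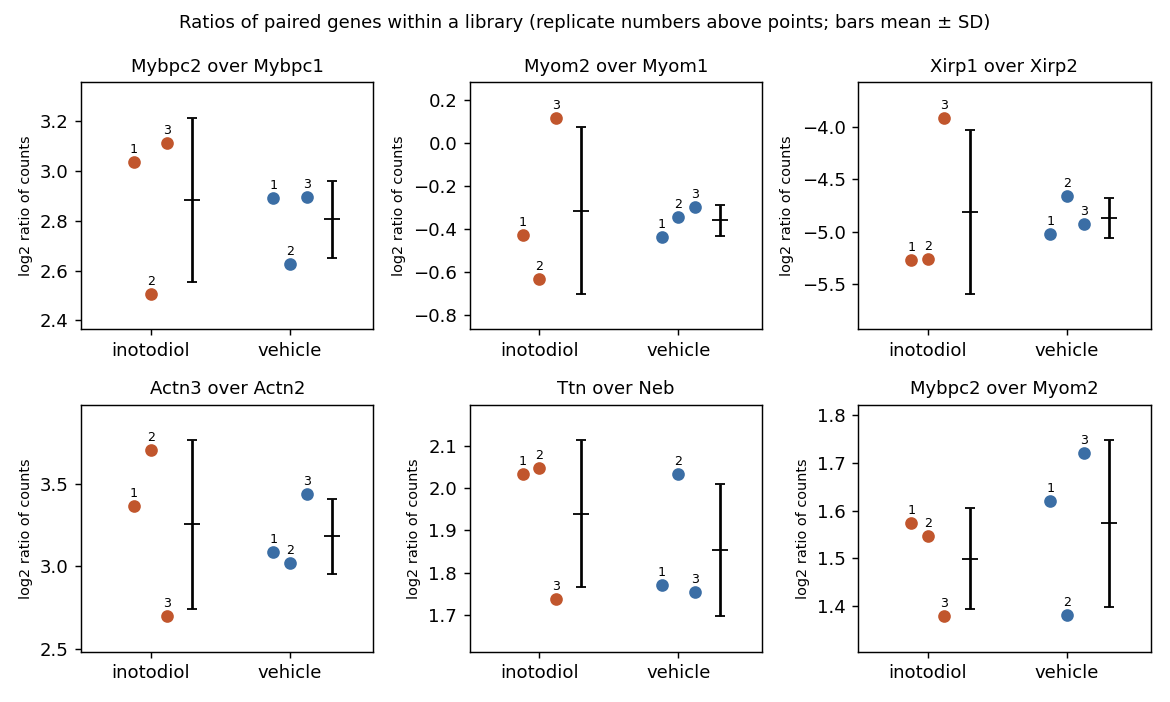
Log2 ratio of counts of paired genes within each library, inotodiol left and vehicle right, with replicate numbers above the points and the mean ± SD (n = 3) as bars; the y axes differ between panels. In each panel the groups overlap. Inotodiol 3 stands apart from inotodiol 1 and 2 in every panel but that of Mybpc2 over Mybpc1.

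Among other genes of the sarcomere none was called in either direction in edgeR, over 6 lists that share some genes. At an unadjusted p under 0.05, 2.67% of all genes were higher and 2.21% lower, against 1 and 0 of 14 in the M-band list, 3 and 2 of 25 in the Z-disc list and 1 and 0 of 19 in the thin filament list. The thick filament list had none of 13, the mechanosensing list 3 higher and 0 lower of 16 and the Xin partner list 1 and 1 of 20. With library totals the median log2 fold change of 5 of the 6 lists was below 0. Without vehicle replicate 2 the median was 0.14 in the M-band list, 0.10 in the Z-disc and thin filament lists, 0.17 in the mechanosensing list and 0.11 in the Xin partner list. Without vehicle replicate 1 that of the M-band list was -0.0066, without inotodiol replicate 2 that of the Xin partner list was -0.033, and with the length-dependent offsets that of the thin filament list was -0.039. The M-band list had 7 of 14 tested genes above 0 and a median log2 fold change of 0.021, led by Ank1, which encodes the ankyrin that ties obscurin to the sarcoplasmic reticulum, at 0.42 ± 0.18. Trim54 stood at 0.23 ± 0.14, Smpx at -0.20 ± 0.12 and Nbr1 at -0.22 ± 0.17. The thick filament and myosin folding list had 13 of 13 above 0 and a median of 0.17, or 0.056 with library totals. In it the slow light chain gene Myl2 stood at 0.38 ± 0.18, the fast light chain gene Myl1 at 0.18 ± 0.10, Mybph at 0.25 ± 0.16 and the chaperone gene Hsp90aa1 at 0.22 ± 0.16. Myl1 had 14270, 12894 and 14820 CPM in inotodiol libraries 1 to 3, against 12539, 11872 and 12680 CPM in vehicle libraries 1 to 3, so the groups did not overlap, as in 10.4% of genes tested.

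The Z-disc list had 14 of 25 tested genes above 0 and a median log2 fold change of 0.052, beside -0.00073 for all genes. Csrp3 stood at 0.86 ± 0.30 and Ankrd2 at 0.63 ± 0.24, the junctophilin gene Jph2 at 0.42 ± 0.15 and Capzb, which encodes a subunit of the cap of the thin filament, at -0.37 ± 0.15. In the thin filament list 12 of 19 were above 0, with a median of 0.021. There the fast tropomyosin gene Tpm1 stood at 0.28 ± 0.10, the fast troponin gene Tnnt3 at 0.22 ± 0.13, Lmod2 at 0.22 ± 0.16 and the slow tropomyosin gene Tpm3 at -0.24 ± 0.18. The titin-associated mechanosensing list had 10 of 16 above 0 and a median of 0.076, with Ankrd23 at 0.46 ± 0.21 and Tcap, the titin cap at the Z-disc, at 0.18 ± 0.12 beside Csrp3 and Ankrd2. Of the Xin partners and junction genes 10 of 20 were above 0, with a median of 0.0071. The integrin-linked kinase gene Ilk stood at 0.42 ± 0.15, the vinculin gene Vcl at -0.54 ± 0.23, Lims1 at -0.34 ± 0.23 and the M-cadherin gene Cdh15 at 0.37 ± 0.26. Adjusted p in edgeR was at least 0.94 for each of these genes. Of them Jph2, Tpm1 and Ilk lay higher in every inotodiol library than in any vehicle library and Vcl lower, as 5.15% and 5.26% of all genes did, and choosing genes by smallest p favours such genes.

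The genes with the most like pattern over the 6 libraries were sought among the 6615 other genes averaging 10 CPM or more. Likeness was the root mean square difference between centred log2 levels. For Ttn they were Atxn2, at a difference of 0.041, 1700025G04Rik and Filip1l, and for Neb they were Fxr1, at 0.031, Baz2b and Atad2b. Myom1 lay nearest to Tmx3, Slc29a1 and Mettl5, and Myom2 to Kif13a, Samm50 and Ccz1. Mybpc1 was nearest to Tnfrsf21, Mpp5 and Zkscan1, whereas Mybpc2 was nearest to Gm2a, Cyld and Swi5. For Xirp1 the nearest gene, Fam57b, was at 0.070, followed by Yars2 and Evc, and for Xirp2 they were Parp1, Kcmf1 and Cdk11b. Actn3 was nearest to Ccnk, Bves and Becn1. No gene was listed for more than 1 member.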

How the data were processed

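Per the labels' protocols, libraries were made with a Lexogen Quant-Seq kit from 500 ng of total RNA. Bowtie2, bedtools and the mm10 build are named, per the submitters' processing notes, without a version; settings, annotation and strand handling were not given in the sources used here. The deposited counts are raw, whole numbers for each gene symbol, in 6 tables of 23282 rows, 44 of which repeat a symbol and were kept apart. The labels call the samples biological replicates.

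Counts were filtered with filterByExpr (minimum count 10, minimum total 15), scaled by TMM and compared between groups in edgeR 4.0.16 under R 4.3.3, with a two-sided quasi-likelihood test, no covariate and p adjusted by Benjamini-Hochberg over 11700 genes (threshold 0.05). Standard errors came from the fitted weights and moderated dispersion. The test was checked on simulated counts. Ratios within a library were tested by exact permutation. Alternatives used limma 3.58.1, DESeq2 1.42.0, other scalings, filters, a replicate block and single libraries left out. Length-dependent offsets (loess, span 0.5), Rn45s as a term and Rn45s taken out were added after the data were seen. The members, lists and tests were chosen with earlier results of these data known. All 9 members were named, with up to 4 genes per list by smallest p and the 3 most like genes per member. Coordinates and transcript lengths are from GENCODE M21 (GRCm38, the assembly of mm10), promoter windows from RefSeq. Pairs of replicates in a group differed by far more than sampling noise (chi-square per gene of 15.04 to 51.4). P-values rest on the spread among 3 mice per group, and in edgeR on dispersion moderated over all genes. Each mouse gave a single library, so spread between mice and between library preparations cannot be told apart.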

Additional observations from a re-analysis of the deposited data

How the results depend on the processing

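No member passed an adjusted p of 0.05 under any alternative tried, and the number of genes called was 0 except for 95 with no filter on low counts, 1 with DESeq2 and a range of 0 to 25 with single libraries left out, the 25 without inotodiol replicate 3. At a threshold of 0.10 it was 0. Before adjustment, a p under 0.05 was reached by 4 of the 9 without inotodiol replicate 3 and 2 without vehicle replicate 2. It was reached by Xirp2 in limma-voom (p 0.040), with the replicate block (0.038) and with length-dependent offsets (0.020), and by Xirp1 with no filter (0.037), without inotodiol replicate 1 (0.049) and with the Rn45s term (0.035); adjusted p was at least 0.56 in each. With library totals the log2 fold changes of Neb (-0.00019), Mybpc1 (-0.11), Mybpc2 (-0.051), Myom1 (-0.012) and Actn3 (-0.081) changed sign, with the median of all genes at -0.12, and the genes passing 0.05 before adjustment then split into 19.0% higher with inotodiol, against 54.7% with TMM. Of the list medians 5 of 6 were then below 0 (thick filament 0.056). With the Rn45s level as a term the log2 fold changes of Ttn (-0.17), Neb (-0.085), Mybpc1 (-0.14) and Myom1 (-0.086) changed sign; the cause was not tested. Mybpc1 was -0.0046 in limma-voom and -0.0037 with the replicate block. The replicate numbers did not pair the samples: correlations of same-numbered deviations were -0.081, 0.11 and 0.023, and 1 of the 3 inotodiol libraries correlated best with its own number. The block called 0 genes. With single libraries left out, log2 fold changes ranged from -0.17 to 0.14 for Mybpc1, -0.0058 to 0.27 for Myom1, -0.024 to 0.092 for Actn3, -0.086 to 0.55 for Xirp1, 0.067 to 0.42 for Ttn, 0.027 to 0.24 for Neb, 0.0028 to 0.15 for Mybpc2, 0.080 to 0.20 for Myom2 and 0.18 to 0.33 for Xirp2. Differences in log2 ratio ranged from -0.034 to 0.27 for Mybpc2 over Mybpc1, -0.17 to 0.20 for Myom2 over Myom1, -0.40 to 0.29 for Xirp1 over Xirp2, -0.15 to 0.35 for Actn3 over Actn2, 0.033 to 0.19 for Ttn over Neb and -0.17 to -0.00053 for Mybpc2 over Myom2. Counting error was at most 2.91% for any member in any library.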
